A study of Mus musculus with 4 samples.

Results

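Creatine kinases, adenylate kinases, the creatine-synthesis enzyme Gatm and myoglobin (Mb) were followed in mouse ventricle with and without extra serum response factor (SRF), a transcription factor of muscle and growth-response genes whose DNA site is the CArG box. The genes were Ckm, Ckb, Ckmt1, Ckmt2, Mb, Gatm, Ak1, Ak3 and Ak4, 9 of the 8251 genes with a probe set of their own on the array. Every probe set that the platform annotation gives to exactly 1 of these symbols was taken, 16 of 12422. RNA came from the ventricles of mice aged 6 months, 2 non-transgenic samples and 2 transgenic samples with moderate overexpression of SRF restricted to the heart. The sources used here do not give the promoter of the transgene, the strain, the number of founder lines or any pooling of animals, and they name no treatment for either group. The level of Srf was not analysed here, which leaves the overexpression unchecked. Nothing in the labels says that the 2 samples of a group are different animals. The p-values therefore reflect only how far these samples differ, and that spread may be technical. With 1 array per sample, precision is limited by the number of arrays.

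Heart muscle keeps its ATP nearly constant while it beats, and creatine kinases are the main buffer that makes this possible. Mitochondrial creatine kinase uses freshly made ATP to charge creatine to phosphocreatine, which diffuses to the myofibrils, where cytosolic creatine kinase turns it back into ATP. Adenylate kinases recover ATP from ADP and produce AMP, the signal of low energy, and myoglobin stores oxygen and carries it to the mitochondria. Adult ventricle relies mainly on the muscle form Ckm and the sarcomeric mitochondrial form Ckmt2, whereas the brain form Ckb is the form of the fetal heart and of many non-muscle cells.

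The sequences upstream of Ckm, Ckmt2 and Ckb are shown because SRF binds CArG boxes and because the muscle and brain forms of the enzyme are compared here. They are the RefSeq bases before the outermost annotated start of each gene, 5′ to 3′ on the gene's own strand, build GRCm38.p6. Capitals mark E boxes (CANNTG), MEF2 sites and CArG boxes with at most 1 mismatch.
Ckm, chr7:19410844-19411093, + strand: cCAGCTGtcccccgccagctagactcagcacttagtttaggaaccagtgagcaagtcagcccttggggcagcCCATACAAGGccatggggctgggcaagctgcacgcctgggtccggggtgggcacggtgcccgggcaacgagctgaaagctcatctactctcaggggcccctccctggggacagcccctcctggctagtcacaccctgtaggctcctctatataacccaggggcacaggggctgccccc
Ckmt2, chr13:91876924-91877135, - strand: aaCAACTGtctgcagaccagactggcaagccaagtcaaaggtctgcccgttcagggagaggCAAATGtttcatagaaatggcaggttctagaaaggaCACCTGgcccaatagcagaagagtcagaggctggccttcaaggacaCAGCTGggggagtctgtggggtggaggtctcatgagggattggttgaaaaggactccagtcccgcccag
Ckb, chr12:111672339-111672588, - strand: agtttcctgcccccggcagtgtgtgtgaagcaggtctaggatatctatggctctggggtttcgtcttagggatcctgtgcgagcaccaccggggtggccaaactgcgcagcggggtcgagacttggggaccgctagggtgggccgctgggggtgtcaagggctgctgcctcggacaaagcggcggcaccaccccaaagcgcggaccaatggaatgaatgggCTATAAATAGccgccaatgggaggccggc

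Each RefSeq promoter window runs from 250 bases before to 50 after a start, and all 9 genes had at least 1, 18 in all. The 3 motifs read the same on both strands, so each search covered both. A CArG box without mismatch was in 0 of the 18 windows, against 1.63% of all 32851 windows. With at most 1 mismatch, a search added after the data were seen, it was in 4 of the 18, against 21.1% of all. In Ckm this was CCATACAAGG, which begins 178 bases before the start. The others were in 1 window of Ak4 and in 2 overlapping windows of Mb. An E box, the site of muscle basic helix-loop-helix factors, was in 13 of the 18 windows, against 72.3%. Ckmt2 had 4 E boxes, Ckm had 1 and Ckb had 0. A MEF2 site was in 1 window each of Ckb and Ak1, against 3.19%; that of Ckb, CTATAAATAG, begins 29 bases before the start and also contains the letters TATAAA. These matches describe the letters of the windows and do not show binding.

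The muscle forms of the phosphagen system were lower in transgenic ventricle. Ckm was 1.65-fold lower, Ckmt2 1.34-fold lower on its brighter probe set, and the cytosolic adenylate kinase Ak1 1.37-fold lower. Ckb, Gatm, Mb, Ckmt1, Ak3 and Ak4 did not pass the test. Of the 16 probe sets 14 passed the filter on dim signals, and 4 of these (3 genes) passed limma at a threshold of 0.05 after Benjamini-Hochberg adjustment over all 7453 probe sets tested, of which 7.93% passed. All 4 were lower (3.86% of all were), and 0 of the 14 were higher (4.07% of all were), with 5 lower and 1 higher at an unadjusted p under 0.05 (12.3% and 11.8% of all). Of the 14, 9 had no overlap between groups (55.9% of all), 7 of them lower in transgenic ventricle (28.1% of all) and 2 higher (27.8% of all). The median log2 change was -0.39 over the 14 and -0.01 over all probe sets tested. Limma without a trend of variance on signal called 0 of the 14 and 1.05% of all, with 5 lower and 1 higher at an unadjusted p under 0.05 (22.2% of all in either direction). The unmoderated test called 0 of the 14 and 0 of all 7453, with 4 lower and 0 higher at an unadjusted p under 0.05 (15.8% of all in either direction). Cardiomyocyte markers fell in the same samples, 6 of 10 past limma. In whole ventricle, fewer cardiomyocytes and less RNA per cardiomyocyte cannot be told apart.

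**Figure D1:**
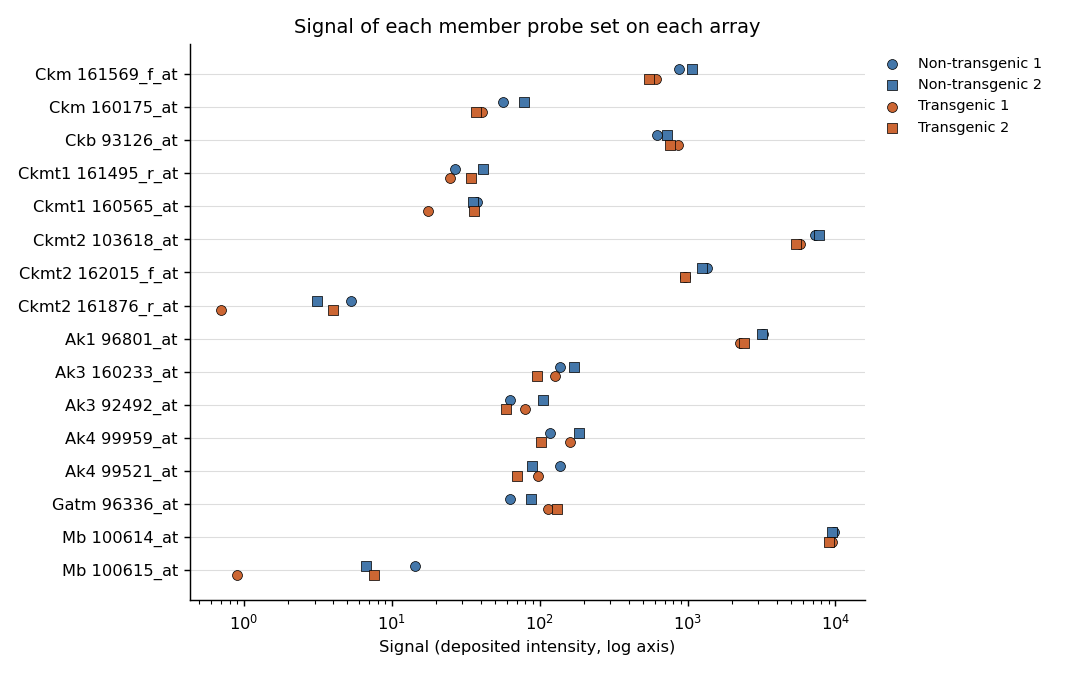
Signal of all 16 probe sets on each of the 4 arrays, on a log axis of the deposited intensity; circles are replicate 1 and squares replicate 2 of each group. Both transgenic points lie left of both non-transgenic points for Ckm, the brighter pair of Ckmt2 probe sets and Ak1, while the points of Ckmt1 and Ak4 overlap.

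Ckm makes the creatine kinase that sits at the M-band and regenerates ATP beside the myosin heads. Its brighter probe set gave signals of 872 and 1068 in non-transgenic and 616 and 547 in transgenic ventricle. Both transgenic values were lower than both non-transgenic ones, with means of 970 ± 138 and 581 ± 48.4 (SD, n = 2 each). The log2 change was -0.72 ± 0.13 (SE; 95% interval -1.02 to -0.43; adjusted p = 0.0193, limma). Without non-transgenic replicate 2 the change was -0.58 and the call ended (adjusted p = 0.0564, limma). A second, dim Ckm probe set gave 56.1 and 78.1 against 40.9 and 36.9, again without overlap. Its log2 change of -0.65 ± 0.24 was close in size but did not pass (adjusted p = 0.150, limma). The brighter set carries the suffix _f, by which Affymetrix marks probe sets that can share probes with related sequences.

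Ckmt2 makes the creatine kinase octamer of the mitochondrial intermembrane space in striated muscle. Its brightest probe set read 7274 and 7746 in non-transgenic and 5750 and 5452 in transgenic ventricle. The groups stood apart, at 7510 ± 334 and 5601 ± 211 (SD, n = 2 each). The log2 change was -0.42 ± 0.06 (SE; 95% interval -0.57 to -0.27; adjusted p = 0.0126, limma). Of the 4 called probe sets this was the one that passed without each array in turn, with adjusted p from 0.0217 to 0.0452 in limma. The second probe set, also marked _f, read 1358 and 1251 against 961 and 957, a log2 change of -0.44 ± 0.09 (adjusted p = 0.0297, limma). With single arrays removed it passed in 1 case of 4, without non-transgenic replicate 2, and missed the threshold in the others (adjusted p up to 0.0971, limma). Its adjusted p was 0.0544 after median centring (limma). Without a filter neither of these Ckmt2 probe sets passed (adjusted p = 0.0581 for the brightest and 0.0546 for the second, limma). The remaining Ckmt2 probe set was below the filter, between 0.7 and 5.3 on all arrays.

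Ckb, the brain-type cytosolic form, went the other way in value. It read 619 and 725 in non-transgenic and 859 and 757 in transgenic ventricle, so that both transgenic arrays were above both controls. The gap between transgenic replicate 2 and non-transgenic replicate 2 was small beside the spread within the groups, at 672 ± 74.8 and 808 ± 72.6 (SD, n = 2 each). The log2 difference of 0.26 ± 0.12 (SE; 95% interval -0.02 to 0.54) did not pass (adjusted p = 0.230, limma). Ckmt1, the ubiquitous mitochondrial form of non-muscle tissues, was dim. Its probe sets read 26.9 and 41.4 against 24.8 and 34.2, and 37.4 and 35.4 against 17.6 and 35.9. The groups overlapped on both, and neither passed (log2 differences -0.15 ± 0.30 and -0.39 ± 0.32; adjusted p = 0.794 and 0.503, limma).

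**Figure D2:**
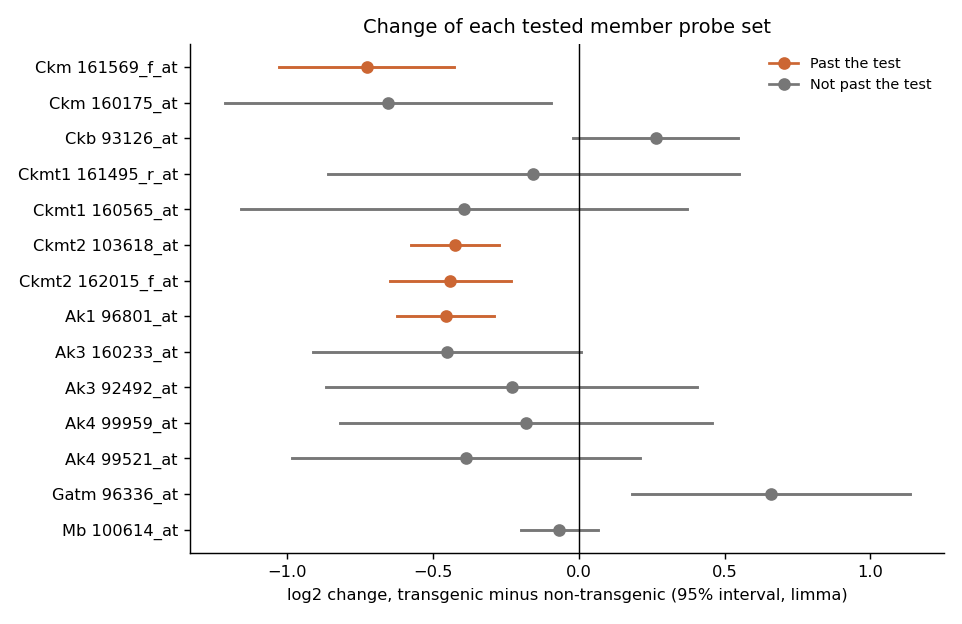
The log2 change of the 14 tested probe sets, transgenic minus non-transgenic, with 95% intervals from limma; orange marks those past the adjusted p threshold. The 4 past it, for Ckm, Ckmt2 and Ak1, lie between -0.72 and -0.42, and the interval of Mb spans 0.

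The shift between isoforms was taken within each array, where a common scaling factor cancels. Signals of different probe sets are not comparable as amounts, so the change of each difference between groups is given and not its level. The log2 difference Ckb minus Ckm was -0.49 and -0.55 without the transgene and 0.48 and 0.46 with it. The groups lay far apart compared with the spread inside each, and the shift was 0.99. Ckb minus Ckmt2 shifted by 0.69, from -3.53 and -3.40 to -2.73 and -2.83. Ckm minus Ckmt2 shifted by -0.30, from -3.05 and -2.85 to -3.21 and -3.30. In all 3 differences the groups did not overlap, and 55.9% of all single probe sets tested did not overlap either. Ckm minus Ckmt2 is fixed by the other 2 differences, so the 3 are not independent. Each had an exact permutation p of 0.333 (two-sided, 2 against 2 arrays). That is the smallest p this design can give, and it cannot pass 0.05. With 3 differences computed, the values adjusted by Benjamini-Hochberg are also 0.333 (exact permutation test).

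**Figure D3:**
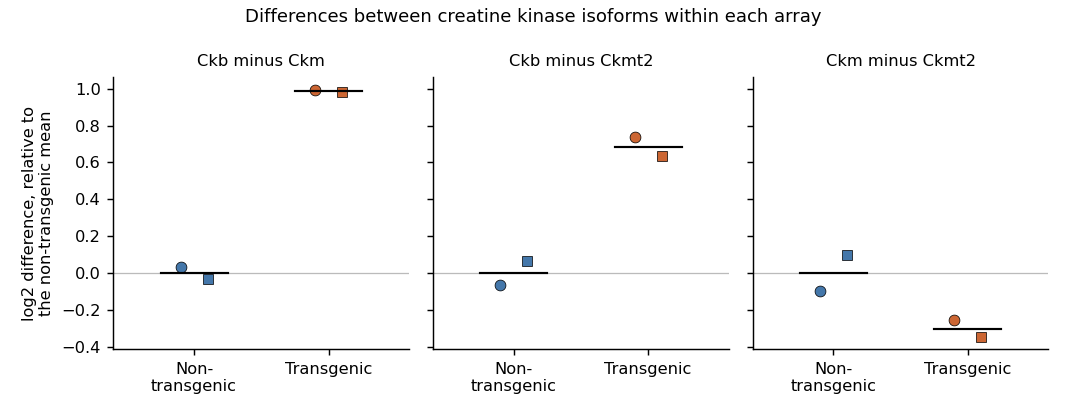
Within-array log2 differences between pairs of creatine kinase isoforms, set relative to the non-transgenic mean; points are single arrays and bars are group means. Ckb minus Ckm lies 0.99 higher on the transgenic arrays, and Ckm minus Ckmt2 lies lower by a smaller step (-0.30).

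Ak1, the cytosolic adenylate kinase of muscle and brain, read 3223 and 3186 in non-transgenic and 2269 and 2403 in transgenic ventricle. The arrays of a group were close to each other and the groups did not overlap, at 3205 ± 26.2 and 2336 ± 94.7 (SD, n = 2 each). The log2 change was -0.46 ± 0.07 (SE; 95% interval -0.62 to -0.29; adjusted p = 0.0135, limma), and the call ended without transgenic replicate 1 (adjusted p = 0.0548, limma). Ak3, the matrix enzyme that uses GTP, read 138 and 172 against 127 and 95.5 on its brighter probe set, with both transgenic arrays below the controls. Its log2 difference of -0.45 ± 0.19 was as large as that of Ak1 but did not pass (95% interval -0.91 to 0.01; adjusted p = 0.213, limma). The second Ak3 probe set overlapped between groups, at 63.1 and 106 against 79.0 and 59.6. Ak4, a matrix isoform of low enzymatic activity, read 117 and 183 against 161 and 103 on one probe set and 138 and 89.0 against 97.9 and 69.9 on the other. Both overlapped, and neither passed (log2 differences -0.18 ± 0.27 and -0.39 ± 0.25; adjusted p = 0.733 and 0.4005, limma). RefSeq lists Ak3 among the older names of Ak4, and the symbols used here follow the gene numbers.

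Mb makes myoglobin. Its main probe set read 9796 and 9478 in non-transgenic and 9433 and 8984 in transgenic ventricle. The nearest arrays of the 2 groups were close to each other, at group means of 9637 ± 225 and 9208 ± 318 (SD, n = 2 each). The log2 difference was -0.07 ± 0.06 (SE; 95% interval -0.20 to 0.07; adjusted p = 0.518, limma). This sign depended on the scaling, since the value was 0.01 with each array centred on its median and 0.23 after quantile normalization, which sets the arrays to one distribution (adjusted p = 0.908 and 0.118, limma). The second Mb probe set was below the filter at 14.4 and 6.7 against 0.9 and 7.6.

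Creatine reaches heart muscle mainly from the blood. Gatm makes its precursor guanidinoacetate, chiefly in kidney and pancreas, Gamt methylates it, chiefly in liver, and Slc6a8 is the transporter that takes creatine into the cell. Gatm read 62.8 and 86.9 in non-transgenic and 114 and 130 in transgenic ventricle. Both transgenic values were higher, and the log2 difference of 0.66 ± 0.20 had an interval above 0 (95% interval 0.18 to 1.14) but did not pass the adjusted test (unadjusted p = 0.0137, adjusted p = 0.104, limma). Slc6a8 read 405 and 321 against 866 and 829, a clear separation. It rose 2.32-fold (log2 change 1.21 ± 0.13, adjusted p = 0.00386, limma) and passed whichever array was removed (highest adjusted p 0.00873, limma). With limma run without the variance trend its adjusted p was 0.0542. A second Slc6a8 probe set was below the filter, at 13.1 and 4.9 against 3.1 and 4.1. Gamt read 227 and 253 against 170 and 218 and did not pass (adjusted p = 0.2998, limma).

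Fibroblast and macrophage markers rose in the samples with the higher Ckb and Gatm values, while endothelial and adipocyte markers did not. Of 8 endothelial markers 0 rose and 1 fell in limma (0 and 1 at an unadjusted p under 0.05), with a median log2 change of -0.11. Of 3 adipocyte markers 0 rose and 1 fell in limma (0 and 2 unadjusted), with a median of -0.60. Of 10 fibroblast markers tested 8 rose and 0 fell in limma (9 and 1 at an unadjusted p under 0.05), and their summed signal was 7377 to 7505 in non-transgenic and 12013 to 12415 in transgenic ventricle. The fibroblast marker that was lower was Pdgfra, at 523 and 391 against 332 and 298 (log2 difference -0.51 ± 0.16, adjusted p = 0.106, limma). Of 9 macrophage markers 5 rose and 0 fell in limma (9 and 0 at an unadjusted p under 0.05), and the sum of all 10 on the array was 2440 to 2714 against 4030 to 4116. Of 6 smooth muscle markers 2 rose and 0 fell in limma (3 and 0 unadjusted), and the sum of all 7 on the array was 1806 to 1828 against 3250 to 3342. Most of that difference was in Acta2 (397 and 431 against 1478 and 1539). Of the 6, 5 were higher on both transgenic arrays and 1 was lower on both, against 27.8% and 28.1% of all probe sets tested. The lower one was Myh11, at 62.2 and 68.5 against 57.4 and 50.3 (adjusted p = 0.506, limma). Of 8 neuron and Schwann cell markers on the array only Tubb3 and Mbp passed the filter, and 0 passed limma (1 higher and 0 lower at an unadjusted p under 0.05). Tubb3, a neuronal tubulin, read 324 and 376 against 541 and 453, higher on both transgenic arrays as Ckb was (log2 difference 0.49 ± 0.14, adjusted p = 0.0795, limma). Its probe set is marked _f, as that of Ckm is. Mbp overlapped between groups, at 45.6 and 52.9 against 43.1 and 62.7 (adjusted p = 0.890, limma). Snap25, Nefl and Nefm were at 6.1 or less on every array. The part of these cell types in the values of Ckb and Gatm was not tested. Kidney markers, 7 on the array, were all below the filter, at 31.2 or less on every array. The 5 pancreas markers read 246 and 198 in sum against 239 and 279, and 0 of the 3 tested passed limma (1 higher and 0 lower at an unadjusted p under 0.05). Ctrb1, a chymotrypsinogen, read 65.6 and 75.1 against 108 and 139, higher on both transgenic arrays as Gatm was (log2 difference 0.73 ± 0.19, adjusted p = 0.0688, limma). Cela1 read 111 and 85.7 against 88.4 and 106, and Cela2a read 57.0 and 22.7 against 37.0 and 28.4, both with overlap. Prss2 and Ins2 were below the filter, each lower on both transgenic arrays. The part of pancreas RNA in the Gatm values was not tested.

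Most of the defining genes of cardiomyocytes were lower too. Of 10 such markers 6 fell and 0 rose in limma (9 and 0 at an unadjusted p under 0.05), with a median log2 change of -0.27 and sums of 86035 to 87454 against 68315 to 69498. The highest signals over the 4 arrays together were those of Tnni3, cardiac troponin I (13111 and 13266 against 8913 and 9414), Myl2, the regulatory myosin light chain (11572 and 11287 against 9026 and 9760), and Mybpc3, cardiac myosin-binding protein C, which did not pass (10816 and 10461 against 8778 and 9359). The largest fall was that of Myl3, an essential myosin light chain (11919 and 11178 against 7816 and 7723; log2 change -0.57 ± 0.06, adjusted p = 0.00281, limma). Csrp3 overlapped between groups, at 4002 and 3868 against 3916 and 3634 (log2 difference -0.06 ± 0.07, adjusted p = 0.645, limma). Centring of the arrays on cardiomyocyte markers was an alternative added after the data were seen, and it moved all log2 changes up by 0.283. The remaining changes were then -0.44 for Ckm (adjusted p = 0.0545), -0.14 for the brightest Ckmt2 probe set (0.202) and -0.17 for Ak1 (0.141), none past limma. On this scale Ckb (0.55, adjusted p = 0.0241), Gatm (0.94, 0.0213) and Mb (0.22, 0.0394) were higher in limma, 3 of 14 probe sets, where 20.2% of all probe sets tested were called higher.

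**Figure D4:**
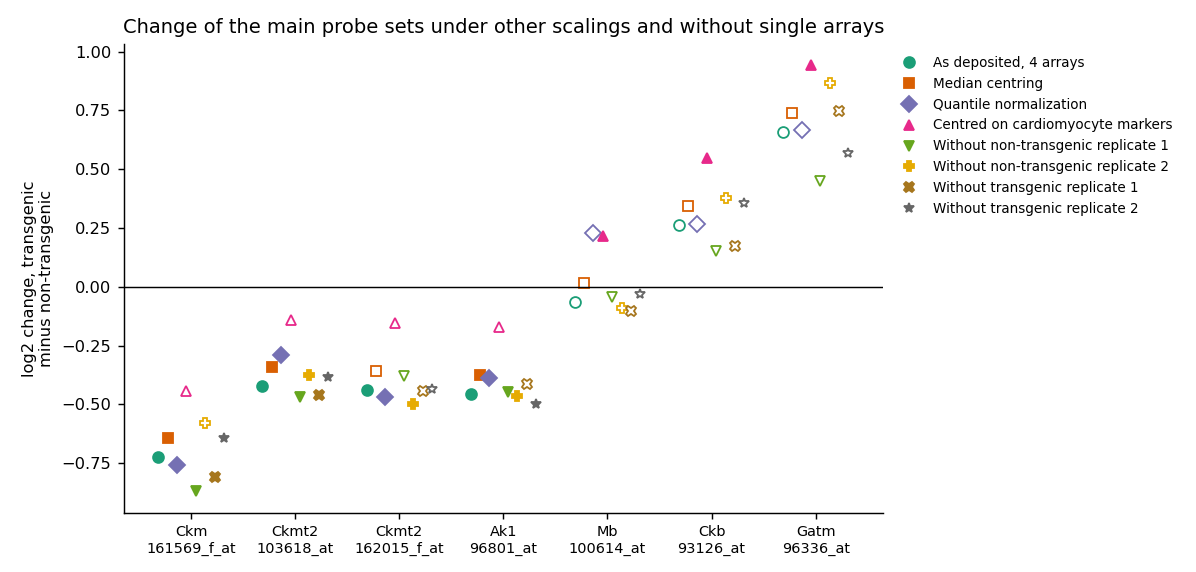
The log2 change of 7 probe sets with the arrays as deposited, under 3 other scalings and without each array in turn; filled symbols passed limma at an adjusted p under 0.05 and open symbols did not. Ckm, Ckmt2 and Ak1 stay below 0 throughout, Ckb and Gatm stay above 0, and Mb lies on either side of 0 depending on the scaling.

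Skeletal muscle and liver were checked because they hold much Ckm and much of the enzymes of metabolite synthesis. Of the fast skeletal genes, Myh1, Myh2, Tnni2 and Actn3 were below the filter (39.0 or less on every array). Among these dim genes, Myh1, Myh2 and Tnni2 were lower on both transgenic arrays, and Actn3 overlapped between groups. Myh4 passed the filter, at 78.2 and 117 against 74.9 and 71.4, lower on both transgenic arrays (adjusted p = 0.380, limma). Pvalb read 272 and 205 against 440 and 335, higher on both (adjusted p = 0.0776, limma). Tnnt3 overlapped, at 41.5 and 44.2 against 38.8 and 41.7. The list's summed signal was 2759 and 2846 in controls and 8148 and 8035 in transgenic ventricle, most of the difference being in Myl1 (925 and 990 against 4522 and 4367) and Casq1 (1062 and 1069 against 2956 and 3036). Of the 8 tested, 2 rose and 1 fell in limma (3 and 3 at an unadjusted p under 0.05). The one that fell was Atp2a1, the calcium pump of fast fibres (154 and 210 against 39.4 and 68.2; log2 change -1.63 ± 0.27, adjusted p = 0.0155, limma). Mylpf read 70.9 and 70.1 against 38.4 and 33.9, and Tnnc2 read 53.4 and 82.7 against 8.1 and 36.1, both lower on the transgenic arrays as Ckm was but not past the test (adjusted p = 0.0635 and 0.114, limma). The part of skeletal muscle in the Ckm values was not tested. Hepatocyte markers fell in 6 of 9 cases with 0 higher in limma (8 and 0 at an unadjusted p under 0.05). The sum of all 13 on the array was 2536 and 4571 in controls and 242 and 320 in transgenic ventricle, and Alb, serum albumin, read 856 and 1738 against 50.3 and 35.7. Non-transgenic replicate 2 was the array with the most hepatocyte signal. It had the higher control value for both Ckm and both Ak3 probe sets, Ckb, Gatm and Gamt. The same held for the brightest Ckmt2 probe set and 1 probe set each of Ckmt1 and Ak4. It had the lower control value for the other Ckmt2, Ckmt1 and Ak4 probe sets, Ak1 and both Mb probe sets. The share of all probe sets higher on this array was not counted. The part of liver RNA in these values was not tested.

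The genes around the phosphagen system were described by lists of transport, nucleotide kinase, AMP sensing, haem and regulator genes. Without Gatm, these held 58 genes on the array, 51 of them tested, and 2 rose, 3 fell and 46 did not pass (7 higher and 14 lower at an unadjusted p under 0.05, a threshold passed by 11.8% and 12.3% of all probe sets). The calls are 3.92% higher and 5.88% lower, beside 4.07% and 3.86% of all probe sets tested. Slc6a8 rose, as above, and so did Uck2, a uridine-cytidine kinase of pyrimidine salvage, from 168 and 156 to 281 and 252 (1.61-fold, adjusted p = 0.0292, limma). Slc25a4, the muscle ADP/ATP carrier that feeds Ckmt2, fell from 8021 and 7538 to 6475 and 6493 (1.199-fold lower, adjusted p = 0.0429, limma). Alas1, the first enzyme of haem synthesis, fell from 1890 and 1916 to 1462 and 1374 (1.34-fold lower, adjusted p = 0.0234, limma). Esrra, a nuclear receptor of mitochondrial and muscle energy genes, fell from 1015 and 1041 to 764 and 774 (1.33-fold lower, adjusted p = 0.0345, limma), while its second probe set read 142 and 201 against 155 and 151 and did not pass (adjusted p = 0.708, limma). Uck2, Slc25a4, Alas1 and Esrra each lost the call whichever array was removed (highest adjusted p 0.143, 0.150, 0.0924 and 0.132, limma). After median centring none of Slc25a4, Alas1 and Esrra passed, and Slc25a4 did not pass after quantile normalization (adjusted p = 0.336, limma).

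The other tested genes of ATP and phosphate exchange had log2 differences between -0.003 and 0.061. Vdac3, an outer membrane channel, read 780 and 778 against 824 and 748, and the second ADP/ATP carrier, Slc25a5, read 545 and 543 against 577 and 558, and Vdac2 read 365 and 378 against 392 and 351. Of 12 other nucleotide kinases tested, 7 had both transgenic arrays below the controls and 2 had both above, against 28.1% and 27.8% of all probe sets tested. Among them Nme2, a nucleoside diphosphate kinase that passes phosphate from ATP to other nucleotides, read 3568 and 3712 against 3070 and 2812 (log2 difference -0.31 ± 0.07, adjusted p = 0.0513, limma). Adk, adenosine kinase, read 805 and 909 against 682 and 682 (adjusted p = 0.107, limma). Nme6, of the same family as Nme2, read 122 and 125 against 92.5 and 76.1 (adjusted p = 0.126, limma).

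None of the 11 tested genes of AMP sensing and adenine nucleotide turnover passed limma (0 and 0, with 3 higher and 2 lower at an unadjusted p under 0.05). Prkab1, a regulatory subunit of AMP-activated kinase, read 297 and 344 against 223 and 237 (adjusted p = 0.0880, limma). Hprt, which salvages hypoxanthine and guanine, read 230 and 248 against 337 and 330 (adjusted p = 0.0643, limma), and Adssl1, the muscle form of adenylosuccinate synthase, read 900 and 1021 against 1336 and 1137 (adjusted p = 0.110, limma).

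Of 12 globin and haem genes tested, 10 had both transgenic arrays below both controls, Alas1 among them, and 1 had both above, against 28.1% and 27.8% of all probe sets tested. The median log2 change of this list was -0.27, and that of all probe sets tested was -0.01. Hba-a1, the adult alpha globin of red cells, whose near-identical copy may share its probes, read 13282 and 12300 against 10768 and 11358 (adjusted p = 0.0887, limma), and Hba-x, the embryonic form, was dim at 45.3 and 50.3 against 19.2 and 19.5 (adjusted p = 0.0606, limma). Alad, the second enzyme of haem synthesis, read 801 and 889 against 672 and 661 (adjusted p = 0.0920, limma). Of 10 regulators tested only Esrra passed. Mef2d, a factor of muscle creatine kinase transcription, read 1373 and 1299 against 1826 and 1555 (adjusted p = 0.0981, limma), and the coactivator Ppargc1a was dim at 42.5 and 36.5 against 25.9 and 42.1. Mef2c read 129 and 148 against 114 and 114 (adjusted p = 0.354, limma), and Nfatc1, a calcineurin-dependent factor, read 63.9 and 60 against 64.8 and 84.8 (adjusted p = 0.541, limma).

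**Figure D5:**
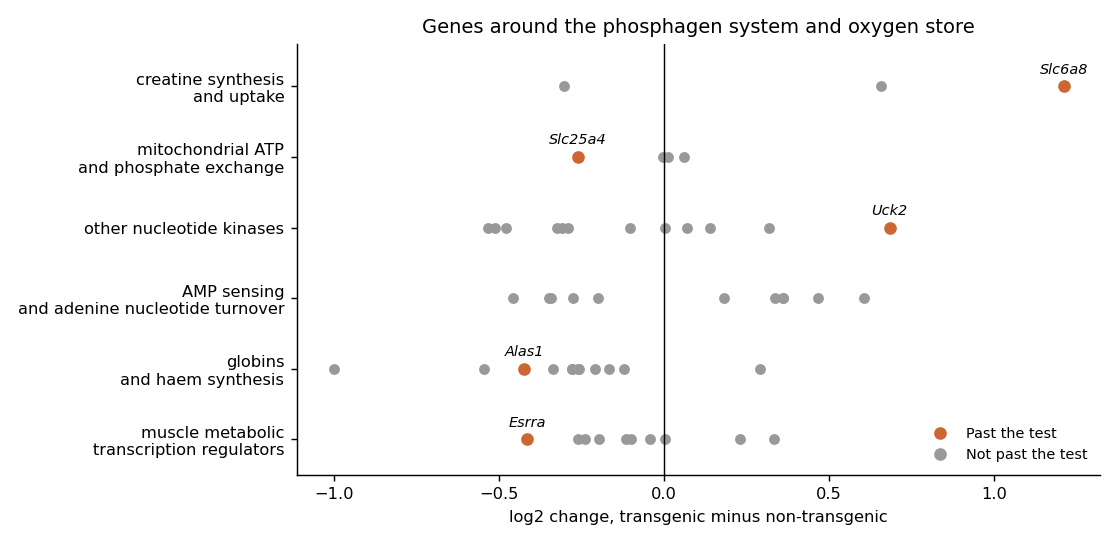
The log2 change of every tested gene in the 6 surrounding lists, 1 point per gene by its brightest probe set; orange points passed limma at an adjusted p under 0.05 and are named. Slc6a8 stands furthest to the right at 1.21, and Slc25a4, Alas1 and Esrra lie to the left of 0.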

How the data were processed

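The members and gene lists were chosen with earlier results of these data known. The deposited values are the authors' signal intensity per probe set on a linear scale, from an Affymetrix mouse array. The sources used here name neither the signal software nor the scaling. Array medians were 54.0 and 52.5 (non-transgenic) and 49.1 and 50.7 (transgenic), and log2 values correlated at 0.973 and 0.981 within groups and 0.961 to 0.964 across them, over probe sets. Of 12488 probe sets, 66 controls were left out. Platform symbols were checked through gene numbers against RefSeq; all 16 member probe sets matched.

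Values were taken as log2(value + 9), 9 being the 20th percentile, and fold changes on this scale understate changes of dim genes. The 40% of probe sets with the lowest mean log2 value were left out, and 7453 remained. Groups, taken from the sample titles, were compared with lmFit and eBayes of limma 3.58.1 (R 4.3.3; trend of variance on signal), two-sided, with Benjamini-Hochberg adjustment over all 7453. A gene in a list is its brightest probe set. The fit was run on simulated data, where only the size of the estimates was checked against the changes put in. Those changes were either none or larger than those of the called members. Named genes were every member, list genes past the test, and up to 3 others per list with the smallest p. Of a marker list, up to 3 bright genes were named. Ppargc1a, Myl3, Csrp3, Pdgfra, Atp2a1, Mylpf, Tnnc2, Myh4, Tnnt3, Myh11 and the marker genes named as below the filter fall outside this rule. They were chosen after their values were seen. Alternatives were other pseudocounts (1 and 32), scalings, filters, variance models, a looser threshold (0.1), a replicate block and leaving out each array. A comparison of protein sequences between isoforms was not analysed here.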

Additional observations from a re-analysis of the deposited data

How the results depend on the processing

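As in the fit as reported, 4 member probe sets were lower with other pseudocounts, quantile normalization, the lowest 60% left out, robust eBayes and the replicate block. The number was 3 after median centring and 2 to 3 without single arrays; 0 were higher there. Without a filter 2 were lower (Ckm and Ak1), with eBayes without trend 0, in the ordinary test 0, and centred on cardiomyocyte markers 0 lower and 3 higher. The fits without a filter, without trend and unmoderated also called fewer of all probe sets: 157 lower and 172 higher, 34 and 44, and 0 and 0 (303 higher and 288 lower in limma as reported, 1802 at an unadjusted p under 0.05). Centring on cardiomyocyte markers gave 120 lower and 1503 higher, and a threshold of 0.1 gave 484 and 477. Without single arrays these ran from 158 to 191 lower and 125 to 232 higher.

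The 3 lower and 2 higher pathway genes became 0 lower after median centring, 0 and 1 without a filter, 0 and 0 with eBayes without trend and in the ordinary test, 8 and 4 at a threshold of 0.1, 0 and 7 centred on cardiomyocyte markers, and 0 and 1 without each single array. Quantile normalization moved Ckb minus Ckmt2 to 0.56 and Ckm minus Ckmt2 to -0.47, and the second Ckm probe set gave 0.92 for Ckb minus Ckm, all with unchanged sign. Without single arrays these differences ran from 0.96 to 1.02 (Ckb minus Ckm), 0.62 to 0.75 and -0.40 to -0.20.

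Mb turned to 0.0141, 0.23 and 0.22 under median centring, quantile normalization and cardiomyocyte centring. The last moved every log2 change up by 0.283. With this shift, Ckmt1 (probe set marked _r) turned to 0.13, Ak3 (dimmer probe set) to 0.0541 and Ak4 (brighter probe set) to 0.10. Without single arrays these 3 ran from -0.40 to 0.0900, -0.57 to 0.11 and -0.48 to 0.12. With the replicate number as a block, the calls of members were 4 lower and 0 higher, and 345 lower and 348 higher over all probe sets; the numbers are not shown to pair the samples (correlation of same-numbered deviations -0.06). In fits without an array, the lone sample of a group is assumed to vary like the other group. Low signal limits Ckmt1, Ak3, Ak4, Gatm and the dim Ckm probe set, whose standard errors exceed those of the brighter members.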
